A study of Mus musculus with 6 samples.

Results

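The genes that copy DNA and supply its building blocks were examined in stem and early progenitor cells of adult mouse bone marrow. Of 42 listed genes of DNA replication and nucleotide supply, 41 were measured by a probe set that names that gene alone, among 18193 genes on the arrays, and Chaf1a was not analysed here. The list was made by function, and each gene was read from its brightest probe set, judged by the mean of the 6 arrays. The measured genes comprised 11 of origin licensing, 4 of helicase activation, 8 of the polymerases and primase, 5 of the sliding clamp and its loading, 5 of single-strand binding, fork protection and Okazaki fragment maturation, 5 of deoxynucleotide supply, 2 of chromatin assembly and histone supply, and the regulator Tcf19.

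All cells were LSK cells, which lack lineage antigens and carry Sca1 and Kit, from bone marrow of mice aged 10 to 14 weeks. They were sorted into CD34+Flt3hi, CD34+Flt3- and CD34-Flt3- cells, with 2 expression arrays for each group, and the study asked which expression changes accompany the different functions of these LSK fractions. The labels give no strain, genotype or treatment, and leave unstated whether replicate arrays stem from different mice or sorts, so the p-values may reflect no more than technical spread. RNA was amplified in 2 rounds before hybridisation. Levels are log2 intensities, and ± after a difference is the standard error of a limma fit of all 6 arrays. Each array read the RNA of many cells, so fewer cells in S phase and less RNA per cell cannot be told apart.

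DNA is copied once per cell division. Origins are licensed when the origin recognition complex, Cdc6 and Cdt1 load the Mcm2 to Mcm7 ring onto DNA, the ring becomes an active helicase when Cdc45 and the GINS complex join it, and primase, the replicative polymerases, the Pcna clamp and the enzymes of Okazaki fragment maturation then build the new strands. Most of these genes are transcribed towards the G1 to S transition through E2F factors, while many mitotic genes, read later in the cycle, carry CHR and CCAAT elements. In adult bone marrow most of the primitive stem cells, which are found among CD34-Flt3- LSK cells, rest outside the cycle, and the CD34+ fractions hold more dividing multipotent progenitors.

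The promoters are described first, and whether they bear on the values that follow was not tested. RefSeq windows of build GRCm38.p6, from 250 bases before to 50 bases after the annotated start, were matched by gene identifier to 33 of the 41 genes. An E2F-type word (TTTCCCGC, TTTCGCGC, TTTGCCGC or TTTGGCGC on either strand) lay in the windows of 12 of these 33 genes (36.4%), against 2.6% of 27025 genes in all and 1 of 25 mitosis genes (4.0%) used for comparison. Further genes of the pathway held it in 9 of 38 (23.7%). Among the members it was found in 7 of 9 genes of origin licensing (Orc1, Cdc6, Cdt1, Mcm3, Mcm5, Mcm6 and Mcm7), 3 of 6 of the polymerases and primase (Pola1, Pold1 and Pole2), 1 of 4 of clamp loading (Rfc3) and 1 of 4 of the fork and Okazaki group (Lig1), and in 0 of 5 of deoxynucleotide supply. A CHR element (TTTGAA or TTCGAA on either strand) lay in 6 of the 33 genes (18.2%), near the 21.7% of all genes, and in 19 of 25 mitosis genes (76.0%). CCAAT on either strand lay in 60.6% of the members, 72.0% of mitosis genes and 41.1% of all genes. A letter may count for several motifs, and a match is a description of the window, not a bound site.

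Of the members with a window, the E2F-type word lay in 6 of 14 called in CD34+Flt3hi against CD34-Flt3- cells (42.9%). It lay in 6 of 19 not called there (31.6%), and the difference was not tested. The following stretches are those of the called genes, while those of Orc1, Cdc6, Mcm3, Pole2 and Rfc3, not called, are left out. The E2F-type word is in capitals, including words that overlap on both strands, with up to 10 bases on each side.
Cdt1, plus strand, chr8:122568037-122568064: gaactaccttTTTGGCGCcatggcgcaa
Mcm5, plus strand, chr8:75109346-75109377: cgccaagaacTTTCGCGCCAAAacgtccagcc
Mcm7, minus strand, chr5:138172031-138172058: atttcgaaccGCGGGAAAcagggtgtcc
Mcm7, minus strand, chr5:138171850-138171877: ggtgacgacgTTTCGCGCcaatttcggt
Pola1, minus strand, chrX:93632276-93632303: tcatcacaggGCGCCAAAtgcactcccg
Pold1, minus strand, chr7:44548766-44548786: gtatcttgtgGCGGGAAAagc
Lig1, plus strand, chr7:13278842-13278869: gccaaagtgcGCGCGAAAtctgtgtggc
Mcm6, which did not pass on its brightest probe set, held a pair of overlapping words like Mcm5 and a further word nearer the start.
Mcm6, minus strand, chr1:128359794-128359825: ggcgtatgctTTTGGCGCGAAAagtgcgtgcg
Mcm6, minus strand, chr1:128359735-128359762: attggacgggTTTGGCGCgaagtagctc
The upstream 250 bases of Tcf19, the member with the largest difference between groups, are shown for contrast. They held no E2F-type word and no CHR element but 3 copies of CCAAT (capitals), which began 182, 129 and 98 bases before the start.
Tcf19, minus strand, chr17:35516825-35517074: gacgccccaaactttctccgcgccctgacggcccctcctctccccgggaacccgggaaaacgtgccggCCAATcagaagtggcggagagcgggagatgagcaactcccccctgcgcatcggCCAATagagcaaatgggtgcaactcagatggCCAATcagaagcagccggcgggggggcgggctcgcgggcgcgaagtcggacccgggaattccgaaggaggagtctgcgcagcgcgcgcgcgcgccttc

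Replication genes were low in CD34-Flt3- cells and close together in the CD34+ groups. CD34-Flt3- cells had the lowest mean for 40 of the 41 genes (97.6%), where 29.2% of all genes were lowest in that group, and Chaf1b was the exception. Both CD34-Flt3- arrays lay below the other 4 arrays for 31 genes (75.6%), against 9.71% of all genes. In CD34+Flt3hi against CD34-Flt3- cells 18 members rose and 0 fell at an adjusted p under 0.05, with a median log2 difference of 0.97 over all 41 and of -0.07 over all genes. Of all genes, 2.62% were called higher and 3.5% lower. In CD34+Flt3- against CD34-Flt3- cells 6 rose and 0 fell, with a median of 0.76 for the members and -0.10 for all genes, where 0.77% of all genes were called higher and 1.33% lower. The 6 were Pola1, Prim1, Pold1, Lig1, Tk1 and Tcf19, and all 6 were also among the 18. Between CD34+Flt3hi and CD34+Flt3- cells 0 members changed. These comparisons share arrays, so their values stand side by side here and are not counted as separate support.

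**Figure D1:**
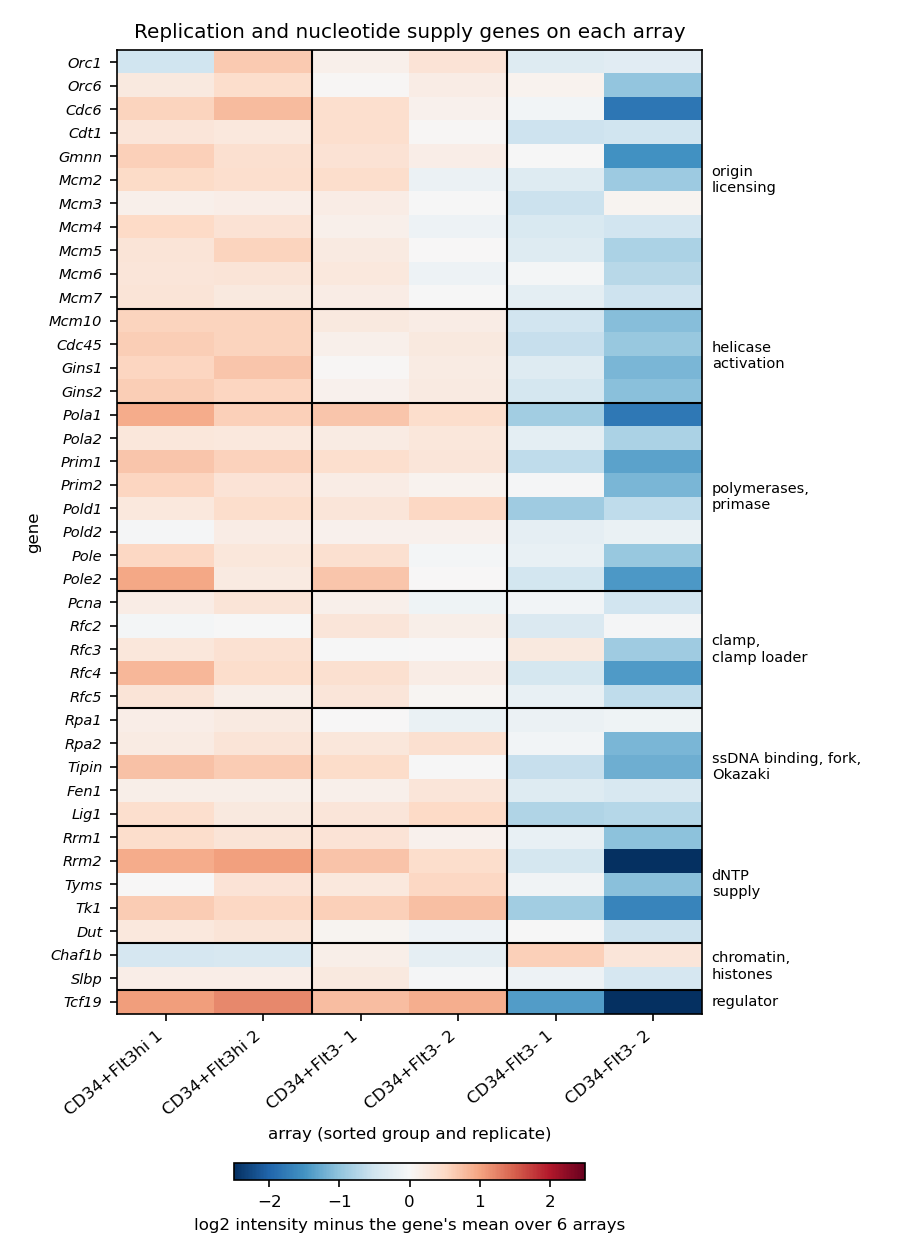
Each row is a gene and each column an array, with colour for the log2 intensity minus the gene's mean over the 6 arrays and lines between sub-functions and sorted groups. The CD34-Flt3- columns are blue for nearly every gene, replicate 2 of that group was the lowest array for 32 of the 41 genes, and Chaf1b has the opposite sign.

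Origin licensing genes had log2 differences of 0.37 to 1.61 between CD34+Flt3hi and CD34-Flt3- cells. All 11 differences in that comparison were positive, 5 genes rose (Cdt1, Mcm2, Mcm4, Mcm5 and Mcm7), and the median log2 difference was 0.80. In CD34+Flt3- against CD34-Flt3- cells all 11 were again positive with a median of 0.57, but 0 passed the limma test and 6 had an unadjusted p under 0.05.

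Cdt1, which brings the Mcm ring to origins, had log2 levels of 11.14 and 11.09 in CD34+Flt3hi cells, 11.26 and 10.88 in CD34+Flt3- cells, and 10.31 and 10.34 in CD34-Flt3- cells. Both CD34-Flt3- arrays were lower than the other 4, by 0.79 ± 0.19 (adjusted p = 0.0407) from CD34+Flt3hi cells and 0.74 ± 0.19 (adjusted p = 0.0873) from CD34+Flt3- cells. Among the ring subunits, Mcm5 read 11.07 and 11.30 in CD34+Flt3hi cells, 10.97 and 10.76 in CD34+Flt3- cells, and 10.42 and 9.95 in CD34-Flt3- cells. Its levels stepped down from group to group without overlap, and CD34+Flt3hi exceeded CD34-Flt3- by 1.0 ± 0.21 (adjusted p = 0.0233). Mcm2 read 10.61 and 10.56 in CD34+Flt3hi cells, 10.58 and 9.99 in CD34+Flt3- cells, and 9.81 and 9.23 in CD34-Flt3- cells, a difference of 1.06 ± 0.27 (adjusted p = 0.0454) between CD34+Flt3hi and CD34-Flt3- cells. For this gene replicate 2 of the CD34+Flt3- group lay close to replicate 1 of the CD34-Flt3- group. Mcm4 had 10.41 and 10.29 in CD34+Flt3hi cells, 10.04 and 9.80 in CD34+Flt3- cells, and 9.53 and 9.43 in CD34-Flt3- cells, and Mcm7 12.59 and 12.51 in CD34+Flt3hi cells, 12.45 and 12.26 in CD34+Flt3- cells, and 12.02 and 11.74 in CD34-Flt3- cells. The groups of both genes were ordered without overlap, with CD34+Flt3hi minus CD34-Flt3- at 0.87 ± 0.21 (adjusted p = 0.0355) for Mcm4 and 0.67 ± 0.16 (adjusted p = 0.0338) for Mcm7.

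The smallest and the largest licensing differences did not pass. Mcm3, another ring subunit, read 10.33 and 10.37 in CD34+Flt3hi cells, 10.41 and 10.22 in CD34+Flt3- cells, and 9.67 and 10.29 in CD34-Flt3- cells, where replicate 2 of CD34-Flt3- lay among the CD34+ arrays and the difference from CD34+Flt3hi was 0.37 ± 0.24 (adjusted p = 0.471). Of its other 4 probe sets, all above background on average, 3 gave 0.39 to 0.58 without passing and the dimmest gave 1.19 (adjusted p = 0.0441 by limma over all probe sets). Cdc6, the ATPase that loads the ring, had 8.11 and 8.35 in CD34+Flt3hi cells, 7.97 and 7.66 in CD34+Flt3- cells, and 7.49 and 5.75 in CD34-Flt3- cells. Its CD34+Flt3hi minus CD34-Flt3- difference of 1.61 ± 0.47 (adjusted p = 0.0833) was larger than that of any called licensing gene, but the CD34-Flt3- arrays lay far apart. Orc1 and Orc6 of the origin recognition complex, Gmnn, the inhibitor of Cdt1, and Mcm6 differed by 0.38 to 1.26 between CD34+Flt3hi and CD34-Flt3- cells (adjusted p from 0.109 to 0.665).

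The helicase activators moved evenly on their brightest probe sets. On these, all 4 genes rose in CD34+Flt3hi against CD34-Flt3- cells, with log2 differences from 1.33 to 1.35. Their arrays fell into 3 groups without overlap. Dimmer probe sets above background gave 0.06 for Mcm10, 0.39 for Cdc45, 0.57 for Gins1 and 1.26 for Gins2 in that comparison. Mcm10, which helps to turn the loaded ring into a working helicase, had log2 levels of 8.30 and 8.30 in CD34+Flt3hi cells, 7.98 and 7.93 in CD34+Flt3- cells, and 7.26 and 6.67 in CD34-Flt3- cells. Cdc45, the ring's activating partner, had 7.84 and 7.78 in CD34+Flt3hi cells, 7.36 and 7.47 in CD34+Flt3- cells, and 6.64 and 6.27 in CD34-Flt3- cells. Their CD34+Flt3hi minus CD34-Flt3- differences were 1.33 ± 0.28 (adjusted p = 0.0205) and 1.35 ± 0.27 (adjusted p = 0.0152). The GINS subunits Gins1 and Gins2 were alike, with Gins1 at 8.12 and 8.27 in CD34+Flt3hi cells, 7.60 and 7.77 in CD34+Flt3- cells, and 7.25 and 6.43 in CD34-Flt3- cells. Gins2 had 8.23 and 8.15 in CD34+Flt3hi cells, 7.73 and 7.84 in CD34+Flt3- cells, and 7.17 and 6.56 in CD34-Flt3- cells. They differed by 1.35 ± 0.31 (adjusted p = 0.0319) and 1.33 ± 0.28 (adjusted p = 0.0226). The other GINS subunits, outside the list, did not pass in that comparison. Gins3 differed by 1.25 ± 0.35 (adjusted p = 0.0735) and Gins4 by 0.32 ± 0.44 (adjusted p = 0.772). In CD34+Flt3- against CD34-Flt3- cells the differences of the 4 listed genes were 0.84 to 0.99. None of these passed by limma, though all 4 had an unadjusted p under 0.05.

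Among the polymerases and primase the calls were in catalytic subunits, although Pole, the catalytic subunit of polymerase epsilon, was not among them. Pola1, the catalytic subunit of polymerase alpha, Prim1, the catalytic subunit of primase, and Pold1, the catalytic subunit of polymerase delta, rose in both CD34+ groups against CD34-Flt3- cells. They made up 3 of the 8 genes called in each comparison, with list medians of 1.07 in CD34+Flt3hi and 0.97 in CD34+Flt3- against CD34-Flt3- cells.

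Pola1 had log2 levels of 9.23 and 8.90 in CD34+Flt3hi cells, 9.01 and 8.75 in CD34+Flt3- cells, and 7.45 and 6.53 in CD34-Flt3- cells. All 4 CD34+ arrays lay more than 1 log2 unit above both CD34-Flt3- arrays, a 4.22-fold difference for CD34+Flt3hi and a 3.7-fold difference for CD34+Flt3- cells. The log2 differences were 2.08 ± 0.33 (adjusted p = 0.00512) and 1.89 ± 0.33 (adjusted p = 0.0235). Prim1 read 10.49 and 10.38 in CD34+Flt3hi cells, 10.22 and 10.11 in CD34+Flt3- cells, and 9.17 and 8.47 in CD34-Flt3- cells. It differed by 1.62 ± 0.26 (adjusted p = 0.0055) in CD34+Flt3hi and 1.34 ± 0.26 (adjusted p = 0.0341) in CD34+Flt3- against CD34-Flt3- cells. Pold1 had 10.00 and 10.18 in CD34+Flt3hi cells, 10.05 and 10.25 in CD34+Flt3- cells, and 8.85 and 9.10 in CD34-Flt3- cells. Its CD34-Flt3- arrays were close to each other, and the differences were 1.11 ± 0.22 (adjusted p = 0.0147) and 1.17 ± 0.22 (adjusted p = 0.0304).

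The accessory subunit of polymerase delta, Pold2, had 9.54 and 9.76 in CD34+Flt3hi cells, 9.67 and 9.67 in CD34+Flt3- cells, and 9.34 and 9.40 in CD34-Flt3- cells. Its groups lay close together, and CD34+Flt3hi minus CD34-Flt3- was 0.28 ± 0.21 (adjusted p = 0.56). The B subunit of polymerase alpha, Pola2, and the large primase subunit, Prim2, differed by 0.79 ± 0.26 and 1.03 ± 0.35, beside 2.08 for Pola1 and 1.62 for Prim1. Whether subunits of a complex differed from each other was not tested. The polymerase epsilon subunits Pole and Pole2 differed by 0.97 ± 0.30 (adjusted p = 0.104) and 1.54 ± 0.40 (adjusted p = 0.0513), and the value of Pole2 lay just above the threshold of 0.05.

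**Figure D2:**
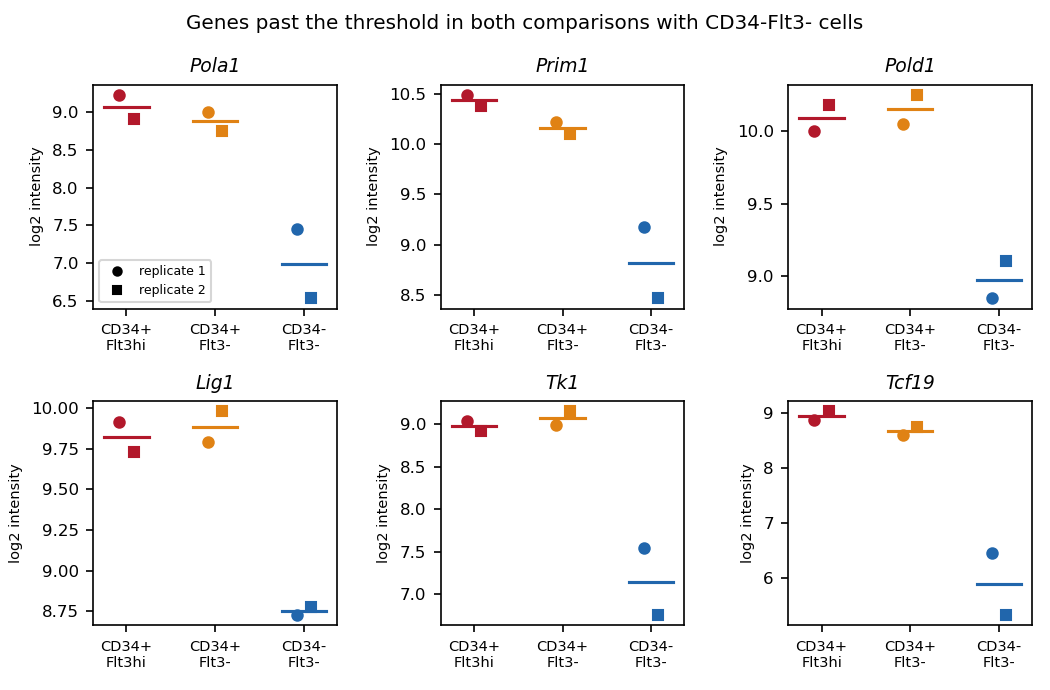
Log2 intensity on each array for the 6 genes called in both CD34+ groups against CD34-Flt3- cells, with circles for replicate 1, squares for replicate 2 and a bar at the mean of the 2 arrays. Axes differ between panels and do not start at 0. In every panel the CD34+Flt3hi and CD34+Flt3- points lie above both CD34-Flt3- points, and Tcf19 spans the widest range, from 5.32 to 9.04.

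Of the 5 genes of the clamp and its loader, 1 rose in CD34+Flt3hi against CD34-Flt3- cells and 0 passed the limma test in CD34+Flt3- against CD34-Flt3- cells, where 1 had an unadjusted p under 0.05. Rfc4, a small subunit of the clamp loader, was the gene that rose, with log2 levels of 8.95 and 8.56 in CD34+Flt3hi cells, 8.53 and 8.32 in CD34+Flt3- cells, and 7.69 and 6.71 in CD34-Flt3- cells. CD34+Flt3hi exceeded CD34-Flt3- by 1.55 ± 0.34 (adjusted p = 0.025), and CD34+Flt3- did by 1.22 ± 0.34 (adjusted p = 0.104). Rfc2, another small subunit, read 10.46 and 10.48 in CD34+Flt3hi cells, 10.81 and 10.65 in CD34+Flt3- cells, and 10.14 and 10.46 in CD34-Flt3- cells. Replicate 2 of CD34-Flt3- lay level with the CD34+Flt3hi arrays, and the difference was 0.17 ± 0.20 (adjusted p = 0.735). Pcna, the clamp itself, Rfc3 and Rfc5 differed by 0.53 to 0.65 between CD34+Flt3hi and CD34-Flt3- cells (adjusted p from 0.115 to 0.39). The list median was 0.64 in that comparison and 0.43 in CD34+Flt3- against CD34-Flt3- cells.

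Genes of the fork and of Okazaki fragments were uneven. Lig1, the ligase that seals Okazaki fragments, rose in both CD34+ groups, and Tipin, which guards stalled forks together with Timeless, rose in CD34+Flt3hi cells. Lig1 had 9.92 and 9.73 in CD34+Flt3hi cells, 9.79 and 9.98 in CD34+Flt3- cells, and 8.73 and 8.77 in CD34-Flt3- cells. Its CD34-Flt3- replicates nearly coincided, and the differences from CD34-Flt3- cells were 1.07 ± 0.22 (adjusted p = 0.017) for CD34+Flt3hi and 1.14 ± 0.22 (adjusted p = 0.0335) for CD34+Flt3- cells. Tipin read 11.02 and 10.93 in CD34+Flt3hi cells, 10.74 and 10.29 in CD34+Flt3- cells, and 9.72 and 9.06 in CD34-Flt3- cells, with 1.58 ± 0.26 (adjusted p = 0.0066) and 1.12 ± 0.26 (adjusted p = 0.0616) in the same order of comparisons. Rpa1, the large subunit of the single-strand binding protein, had 10.98 and 11.04 in CD34+Flt3hi cells, 10.81 and 10.64 in CD34+Flt3- cells, and 10.66 and 10.71 in CD34-Flt3- cells, and its CD34+Flt3- and CD34-Flt3- arrays overlapped. CD34+Flt3hi exceeded CD34-Flt3- by 0.33 ± 0.18 (adjusted p = 0.383) for that gene. Rpa2 and the flap nuclease Fen1 differed by 0.87 ± 0.34 and 0.51 ± 0.17 (adjusted p = 0.198 and 0.117).

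Deoxynucleotide supply held 2 of the 4 largest differences between CD34+Flt3hi and CD34-Flt3- cells, those of Rrm2 and Tk1. Tk1, the cytosolic thymidine kinase of S phase, had log2 levels of 9.04 and 8.92 in CD34+Flt3hi cells, 8.99 and 9.15 in CD34+Flt3- cells, and 7.54 and 6.75 in CD34-Flt3- cells. It rose in CD34+Flt3hi cells by 1.84 ± 0.30 (adjusted p = 0.0057) and in CD34+Flt3- cells by 1.93 ± 0.30 (adjusted p = 0.0176) against CD34-Flt3- cells. Rrm2, the S phase subunit of ribonucleotide reductase, read 10.00 and 10.08 in CD34+Flt3hi cells, 9.79 and 9.51 in CD34+Flt3- cells, and 8.62 and 6.39 in CD34-Flt3- cells. CD34+Flt3hi exceeded CD34-Flt3- by 2.53 ± 0.55 (adjusted p = 0.0241), a 5.79-fold difference, and CD34+Flt3- did by 2.14 ± 0.55 (adjusted p = 0.0849). The CD34-Flt3- replicates of Rrm2 were over 2 log2 units apart, and without replicate 2 of that group the CD34+Flt3hi difference was 1.42. Rrm1, the large reductase subunit, differed by 1.0 ± 0.27 (adjusted p = 0.0618), and Dut, which removes dUTP, with 10.54 and 10.61 in CD34+Flt3hi cells, 10.35 and 10.16 in CD34+Flt3- cells, and 10.28 and 9.75 in CD34-Flt3- cells, by 0.56 ± 0.23 (adjusted p = 0.219). Tyms, thymidylate synthase, had a CD34-Flt3- mean below background, a log2 level of 4.50 set by bacterial control probe sets, so CD34+Flt3hi cells were at least 1.25-fold higher than CD34-Flt3- cells, with an adjusted p of 0.246. Another Tyms probe set, below background on average, read 4.92 and 5.29 in CD34+Flt3- and 3.60 and 3.54 in CD34-Flt3- cells. That difference was 1.53 (adjusted p = 0.0243 by limma over all probe sets), and 2 further probe sets below background gave 0.06 and -0.02.

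Chaf1b had the opposite sign from the other 40 genes in both comparisons with CD34-Flt3- cells, without passing the test. This subunit of the chromatin assembly factor CAF-1 had log2 levels of 8.18 and 8.20 in CD34+Flt3hi cells, 8.74 and 8.38 in CD34+Flt3- cells, and 9.19 and 8.90 in CD34-Flt3- cells, so that its CD34-Flt3- arrays were the highest of the 6. CD34+Flt3hi minus CD34-Flt3- was -0.85 ± 0.25 (adjusted p = 0.0849) and CD34+Flt3- minus CD34-Flt3- was -0.48 ± 0.25 (adjusted p = 0.367). Slbp, which binds the end of histone messages, had 10.01 and 10.01 in CD34+Flt3hi cells, 10.10 and 9.81 in CD34+Flt3- cells, and 9.71 and 9.43 in CD34-Flt3- cells, with a CD34+Flt3hi minus CD34-Flt3- difference of 0.44 ± 0.22 (adjusted p = 0.332).

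Tcf19, which codes for a nuclear protein first described as a growth-regulated gene, had the largest difference of the 41 genes. Its log2 levels were 8.88 and 9.04 in CD34+Flt3hi cells, 8.62 and 8.75 in CD34+Flt3- cells, and 6.45 and 5.32 in CD34-Flt3- cells. The CD34+Flt3hi mean was 8.43-fold and the CD34+Flt3- mean 6.94-fold that of CD34-Flt3- cells, log2 differences of 3.08 ± 0.35 (adjusted p = 0.00117) and 2.79 ± 0.35 (adjusted p = 0.0132). The CD34+Flt3hi call held under all 16 alternatives run for it (adjusted p up to 0.0198).

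**Figure D3:**
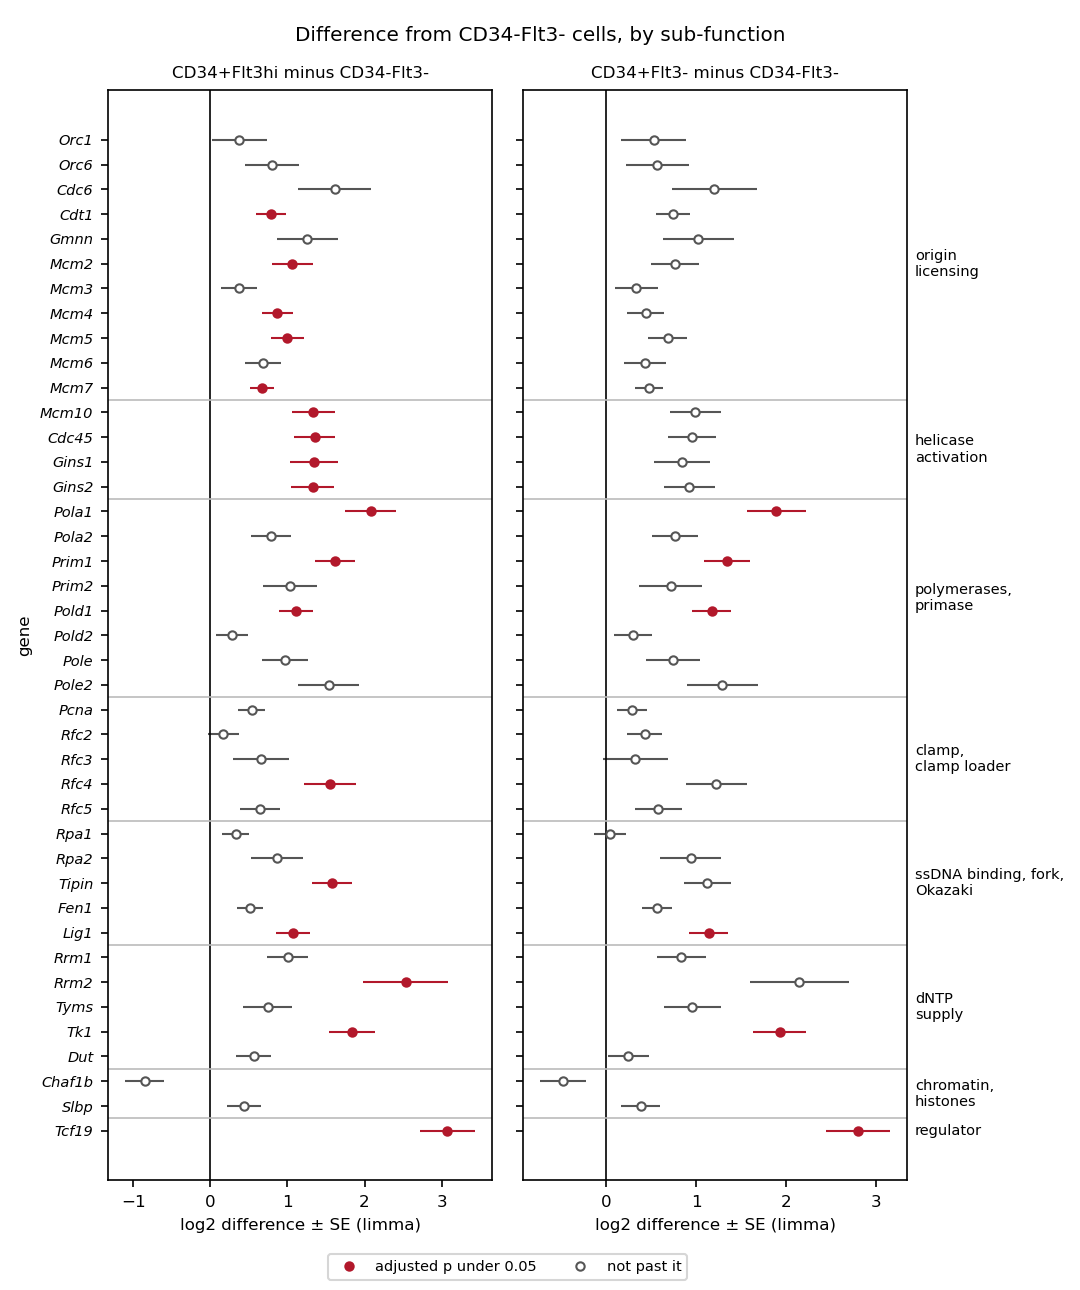
Log2 difference from CD34-Flt3- cells of each gene, for CD34+Flt3hi cells (left) and CD34+Flt3- cells (right), with the limma standard error as a bar and filled red points for an adjusted p under 0.05. The 18 filled points on the left include the whole helicase activation group, the 6 on the right do not include it, and only Chaf1b lies left of 0.

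The calls depended on single arrays, since each group had only 2. In CD34+Flt3hi against CD34-Flt3- cells nearly all member calls, and most calls over all genes, were lost without either CD34+Flt3hi array. The median log2 difference of the 41 members was then 0.93 in both fits (-0.09 and -0.06 for all genes). Some member calls were lost without either CD34+Flt3- array or replicate 2 of CD34-Flt3-. The median was 1.23 without replicate 1 of CD34-Flt3- (-0.07 for all genes) and 0.59 without replicate 2 (-0.05). In CD34+Flt3- against CD34-Flt3- cells nearly all member calls, and most over all genes, were lost when any CD34+ array was left out. The member median was 0.67 without replicate 1 and 0.83 without replicate 2 of CD34+Flt3- (-0.14 and -0.07 for all genes). It was 1.11 without replicate 1 and 0.47 without replicate 2 of CD34-Flt3- (-0.10 and -0.09). The directions were counted without the fit as well. In CD34+Flt3hi against CD34-Flt3- cells both arrays of one group cleared both of the other for 38 genes upward, where 18.8% of all genes did so, and for 1 downward (29.1% of all genes). In CD34+Flt3- against CD34-Flt3- cells the counts were 33 upward (15.6% of all genes) and 1 downward (28.6%). Unadjusted p-values under 0.05 were found for 34 and 26 of the 41 genes, and for 3336 and 3082 of all 18193 genes.

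No single replication gene differed detectably between CD34+Flt3hi and CD34+Flt3- cells. Limma called 0 of 41 genes, and 0 had an unadjusted p under 0.05, where 0.385% of all genes were called higher, 0.225% lower and 1229 genes had an unadjusted p under 0.05. The largest positive difference was 0.51 ± 0.31 (adjusted p = 0.895) for Gins1, followed by 0.46 ± 0.26 (adjusted p = 0.861) for Tipin and 0.43 ± 0.21 (adjusted p = 0.778) for Mcm4. The sign was nonetheless uneven, with 31 genes positive and a median of 0.23 against 0.03 for all genes. For 21 genes both CD34+Flt3hi arrays lay above both CD34+Flt3- arrays (22.7% of all genes), and for 2, Rfc2 and Chaf1b, below them (17.7%). All 4 helicase activation genes were among the 21, though other probe sets of Mcm10 and Cdc45 above background gave -0.52 and -0.32. Without replicate 2 of CD34+Flt3- the median was 0.07, and without replicate 1 of that group it was 0.32.

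The group means ran in the order CD34+Flt3hi, CD34+Flt3-, CD34-Flt3- from high to low for 31 of the 41 genes, against 2978 of 18193 genes in all. For 9 genes the CD34+Flt3- mean was the highest (22%, against 22.6% of all genes), among them Pold1, Lig1 and Tk1. The difference between the 2 steps, CD34+Flt3- minus CD34-Flt3- less CD34+Flt3hi minus CD34+Flt3-, was positive for 37 genes with a median of 0.62, against -0.14 for all genes. By limma 0 members passed for it, as did 0.011% of all genes positive and 0.0165% negative, and 6 had an unadjusted p under 0.05. The 6 were Tcf19, Tk1, Pola1, Pold1, Lig1 and Prim1, with step differences from 1.07 ± 0.45 (adjusted p = 0.514) for Prim1 to 2.51 ± 0.61 (adjusted p = 0.317) for Tcf19. A larger step from CD34-Flt3- to CD34+Flt3- cells than from CD34+Flt3- to CD34+Flt3hi cells was therefore not shown for any single gene.

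Further genes of the pathway, from lists chosen by function, had the same direction where they passed. Of 45 measured genes, 12 rose in CD34+Flt3hi and 3 in CD34+Flt3- against CD34-Flt3- cells, beside 2.62% and 0.77% of all genes. In either comparison 0 fell, and 0 differed between the CD34+ groups by limma (3 with an unadjusted p under 0.05). The median log2 differences were 0.53, 0.38 and 0.22 in the same order. Against CD34-Flt3- cells 7 differences were negative for CD34+Flt3hi and 14 for CD34+Flt3- cells. Both arrays lay below both CD34-Flt3- arrays for 5 and 9 genes (29.1% and 28.6% of all genes). They lay above them for 28 and 24 (18.8% and 15.6%). Hells, a chromatin remodeller, differed by 1.68 ± 0.28 (adjusted p = 0.00692) between CD34+Flt3hi and CD34-Flt3- cells, the fork protector Clspn by 1.77 ± 0.31 (adjusted p = 0.00844), and the origin-firing kinase gene Cdc7 by 1.53 ± 0.27 (adjusted p = 0.00851). Timeless, the partner of Tipin, differed by 1.20 ± 0.23 (adjusted p = 0.0125), Atad5, which unloads the clamp, by 1.63 ± 0.35 (adjusted p = 0.0244), and the salvage kinase gene Dck by 1.14 ± 0.25 (adjusted p = 0.027). In CD34+Flt3- against CD34-Flt3- cells the genes that rose were Asf1b, a histone chaperone, by 1.46 ± 0.29 (adjusted p = 0.0356), Clspn by 1.52 ± 0.31 (adjusted p = 0.04), and Chtf18, of an alternative clamp loader, by 1.85 ± 0.40 (adjusted p = 0.0485). These calls also depended on single arrays. In CD34+Flt3hi against CD34-Flt3- cells none was left without either CD34+Flt3hi array, and some were lost without either CD34+Flt3- array. In CD34+Flt3- against CD34-Flt3- cells none was left when any CD34+ array was left out. Without either CD34-Flt3- array a gene was called lower in both comparisons. The CD34+Flt3hi minus CD34-Flt3- difference of Clspn was 2.14 without replicate 1 and 1.41 without replicate 2 of CD34-Flt3-. That of Hells was 1.66 and 1.70. With all probe sets of a gene averaged, Atad5 and Dck differed by 0.71 and 0.70 between CD34+Flt3hi and CD34-Flt3- cells and did not pass (adjusted p = 0.233 and 0.178 by limma), and Clspn differed by 1.12 (adjusted p = 0.0345).

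Of the 45 genes, 9 belong to deoxynucleotide supply. In CD34+Flt3hi against CD34-Flt3- cells 2 of them rose, Dck and the thymidylate kinase gene Dtymk by 0.87 ± 0.21 (adjusted p = 0.0352), 0 fell, and 5 had a negative difference. The relatives of Rrm2 and Tk1 that work outside S phase were picked after their values were seen, and neither passed. Rrm2b, the reductase subunit of resting and damaged cells, had 6.39 and 7.06 in CD34+Flt3hi cells, 6.94 and 6.38 in CD34+Flt3- cells, and 7.77 and 7.14 in CD34-Flt3- cells, and CD34+Flt3hi minus CD34-Flt3- was -0.73 ± 0.35 (adjusted p = 0.313). Tk2, the mitochondrial thymidine kinase, had 5.74 and 6.08 in CD34+Flt3hi cells, 5.83 and 5.96 in CD34+Flt3- cells, and 7.13 and 6.66 in CD34-Flt3- cells, with both CD34-Flt3- arrays above the other 4 and a difference of -0.99 ± 0.29 (adjusted p = 0.083). Of 12 measured genes of de novo purine and pyrimidine synthesis, 1 rose in CD34+Flt3hi against CD34-Flt3- cells, Umps, the last enzyme of uridylate synthesis, by 1.32 ± 0.24 (adjusted p = 0.0102). With all its probe sets averaged Umps differed by 0.50 and did not pass (adjusted p = 0.24 by limma). By limma 0 of the 12 passed in CD34+Flt3- against CD34-Flt3- cells or between the CD34+ groups, where 0 and 1 had an unadjusted p under 0.05. Their medians were 0.19 in CD34+Flt3hi and -0.08 in CD34+Flt3- against CD34-Flt3- cells, and 0.30 between the CD34+ groups, with all 12 positive in the last. Of 5 genes of S phase cyclins and kinase control, 3 rose in CD34+Flt3hi against CD34-Flt3- cells. They were the cyclin genes Ccna2 and Ccne2 and the phosphatase gene Cdc25a. Ccna2 had 10.49 and 10.50 in CD34+Flt3hi cells, 10.02 and 10.18 in CD34+Flt3- cells, and 8.53 and 5.40 in CD34-Flt3- cells, and CD34+Flt3hi exceeded CD34-Flt3- by 3.53 ± 0.74 (adjusted p = 0.0207). Its CD34-Flt3- arrays lay over 3 log2 units apart, and without replicate 2 of that group the difference was 1.96. The CD34-Flt3- mean of Ccne2 lay below background, so CD34+Flt3hi cells were at least 2.64-fold higher, with an adjusted p of 0.0116. Cdc25a differed by 1.24 ± 0.31 (adjusted p = 0.0457), by 0.81 (adjusted p = 0.106 by limma) without replicate 2 of CD34-Flt3-, and by 0.54 (adjusted p = 0.229) with its probe sets averaged.

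The CD34-Flt3- arrays differed from each other more in these genes than in others. Replicate 1 was above replicate 2 for 33 of the 41 members, with a median gap of 0.59 on the log2 scale, against 0.01 for all genes. The median SD of the members was 0.43 in CD34-Flt3- cells (0.24 for all genes), while it was 0.08 in CD34+Flt3hi (0.13 for all genes) and 0.14 in CD34+Flt3- cells (0.18 for all genes). Cdc6, Gmnn and Rrm2 had an SD over 1 in CD34-Flt3- cells. The gap was wider still in mitosis genes, where replicate 1 was above replicate 2 for 27 of 27 measured genes with a median gap of 1.76. Relative to each gene's mean over the arrays, the members stood at 0.39 and 0.40 in CD34+Flt3hi, 0.29 and 0.16 in CD34+Flt3-, and -0.32 and -0.91 in CD34-Flt3- cells. The mitosis genes stood at 0.96 and 1.04, 0.52 and 0.68, and -0.76 and -2.45 on the same arrays, and 26 of 27 rose in CD34+Flt3hi and 12 of 27 in CD34+Flt3- against CD34-Flt3- cells. Their medians of 2.60 and 1.99 stand beside 0.97 and 0.76 for the replication genes, a difference between lists that was not tested. The 7 other genes of chromatin assembly stood at -0.19 and -0.67 on the CD34-Flt3- arrays.

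**Figure D4:**
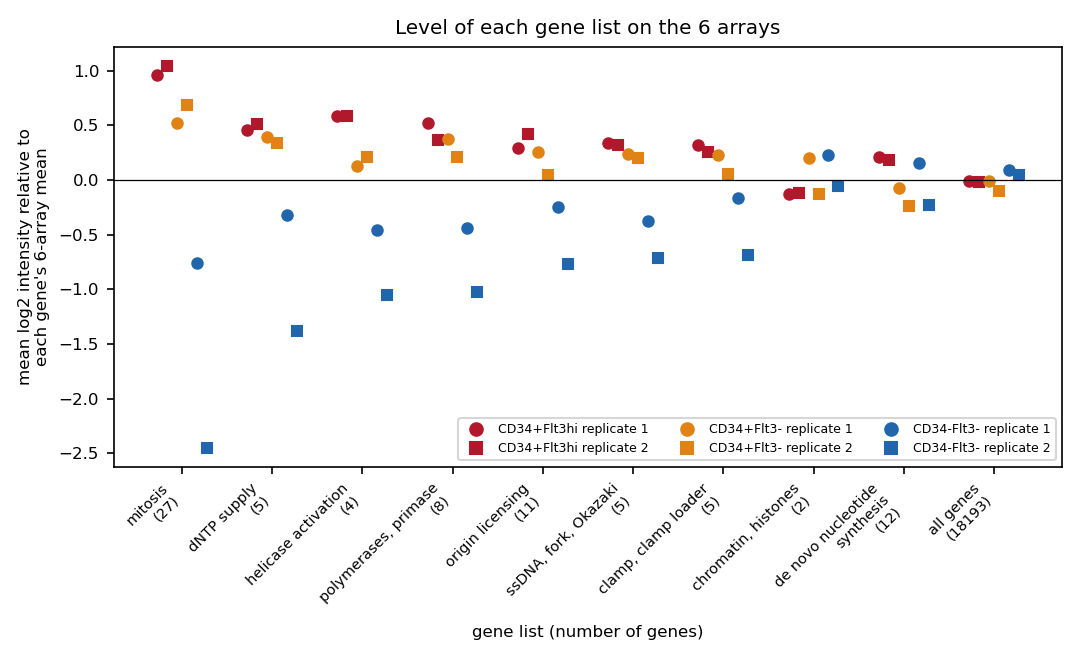
Mean log2 intensity of each gene list on each array, relative to each gene's mean over the 6 arrays, with the number of genes under each name, circles for replicate 1 and squares for replicate 2. The CD34-Flt3- squares lie lowest in the replication lists and mitosis, from -2.45 for mitosis to -0.69 for the clamp. They stand at -0.06 in the 2-gene list for chromatin and histones, -0.23 in de novo synthesis and 0.05 in all genes.

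Each sample title ends in a code whose meaning the labels do not explain. The same code, here A, marks replicate 2 of all groups, a code B marks replicate 1 of both CD34+ groups, and a code C marks replicate 1 of CD34-Flt3-. Within code A the member medians were 1.33 for CD34+Flt3hi and 1.14 for CD34+Flt3- against CD34-Flt3- cells, and 0.26 between the CD34+ groups. Within code B the last was 0.12. Each of these values compares single arrays and has no test.

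Other probe sets of the same genes pointed mostly the same way. The 31 genes with several probe sets had 48 besides the brightest, of which 33 lay above background on average. In CD34+Flt3hi against CD34-Flt3- cells all 33 had the sign of the brightest, as had 31 of 33 in CD34+Flt3- against CD34-Flt3- cells. Between the CD34+ groups 26 of 33 had that sign. Sizes differed within a gene. For Mcm6 the brightest probe set gave a CD34+Flt3hi minus CD34-Flt3- difference of 0.68, while another gave 1.40 (adjusted p = 0.00746 by limma over all probe sets), and for Mcm4 they gave 0.87 and 1.69. Prim2 gave 1.03 and 1.29, Rfc3 0.65 and 1.68, and Rfc4 1.55 and 1.90. The brightest was the larger for Pold1, with 1.11 beside 0.56, and its other probe set did not pass in CD34+Flt3hi (adjusted p = 0.265) or CD34+Flt3- (adjusted p = 0.221) against CD34-Flt3- cells by limma over all probe sets. Rrm2 gave 2.53 beside 2.38 and 1.09. The other probe sets of Pola1 and Tcf19 lay below background and gave -0.27 and 0.19, so both of those genes' calls rest on 1 probe set. The calls of Lig1, Tk1 and Tipin, which had no other probe set, also rest on 1. Of 17 other probe sets above background of genes called in CD34+Flt3hi against CD34-Flt3- cells, 9 did not pass, from Mcm5, Mcm7, Mcm10, Cdc45, Gins1, Pold1 and Rrm2. Of 16 of genes not called there, 3 passed, from Mcm3, Mcm6 and Prim2. With probe sets whose suffix marks possible cross-hybridisation (x or s) left out, Mcm5, Mcm7 and Pold1 lost their calls, and 15 members rose in CD34+Flt3hi and 5 in CD34+Flt3- against CD34-Flt3- cells.

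**Figure D5:**
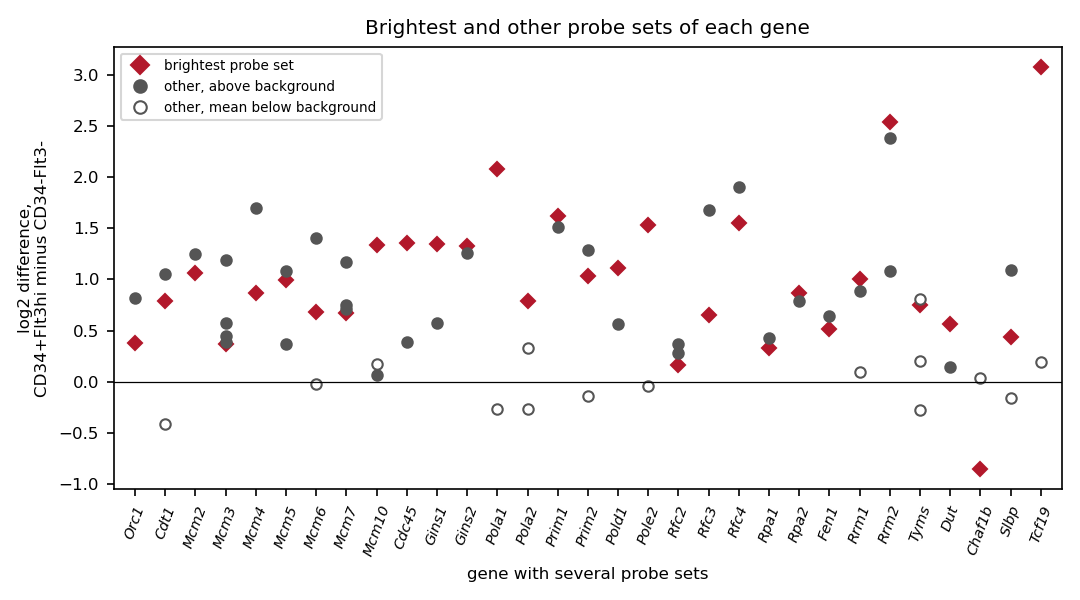
Log2 difference between CD34+Flt3hi and CD34-Flt3- cells for every probe set of the 31 genes with several, with red diamonds for the brightest, filled grey circles for others above background and open circles for others below it. All 33 filled circles have the sign of their gene's diamond, and the open circles scatter around 0.

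The sorted groups showed the antigens they were gated on. Cd34 had log2 levels of 11.35 and 11.34 in CD34+Flt3hi cells, 10.51 and 10.68 in CD34+Flt3- cells, and 8.78 and 9.45 in CD34-Flt3- cells, and Flt3 12.01 and 11.75 in CD34+Flt3hi cells, 8.84 and 9.81 in CD34+Flt3- cells, and 7.65 and 9.16 in CD34-Flt3- cells, so the Flt3 levels of the CD34+Flt3- and CD34-Flt3- groups overlapped. Kit was above background on every array, and Ly6a was not analysed here. The Kit difference from CD34-Flt3- cells was -0.98 for CD34+Flt3hi and -0.87 for CD34+Flt3- cells, and neither passed by limma. Marker lists of other cells moved with the groups in part. The summed linear intensity of 6 mature erythroid genes was 4345 to 4702 in CD34+Flt3hi, 5171 to 7797 in CD34+Flt3- and 7086 to 11114 in CD34-Flt3- cells, with Hba-a1 and Slc4a1 below background in every group. Car2, a carbonic anhydrase gene, made up 88.7% to 96.5% of that sum, and the other 5 genes summed to 165 to 171, 179 to 468 and 351 to 1251 in the same order of groups. Klf1, an erythroid transcription factor, had 5.69 and 5.31 in CD34+Flt3hi cells, 7.95 and 5.96 in CD34+Flt3- cells, and 9.92 and 7.46 in CD34-Flt3- cells. It was higher on replicate 1 of CD34-Flt3- than on replicate 2, as were only 3 of the 6 erythroid genes, Klf1 included. The sum of 5 endothelial genes was 132 to 178, 177 to 337 and 422 to 694 again in that order, with Cdh5 below background in every group, and without Tek, up to 55.3% of it, it was 121 to 165, 150 to 151 and 242 to 353. Neutrophil and monocyte genes summed to 644 to 931, 280 to 361 and 211 to 259, and without Csf1r, a receptor gene, to 169 to 173, 167 to 169 and 156 to 176, with Ltf, S100a8 and S100a9 below background in every group. T and NK lineage genes summed to 956 to 976, 1350 to 1404 and 392 to 530, and without Nkg7 to 221 to 224, 254 to 325 and 194 to 230, with Cd3g below background in every group. B lineage genes summed to 324 to 325, 293 to 345 and 424 to 439, and stromal and bone genes to 184 to 219, 189 to 232 and 231 to 332, with Ms4a1 of the B lineage list below background in every group. The part of any of these cells in the replication gene differences was not tested.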

How the data were processed

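RNA of sorted LSK cells was measured on 6 single-colour Affymetrix expression arrays, 2 per group. The deposited values are RMA intensities per the submitters' processing notes, which give no version. They ran from 6.50 to 24174 and are taken here as linear, an inference from that range, and their log2 was used. Arrays have no depth, so their number limits the precision.

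Of 45101 probe sets, 34945 carried 1 gene symbol, 932 several, 9160 none, and 64 were controls. Symbols were updated by gene identifier (99.4% matched). Each of 18193 genes was read from its brightest probe set, and Chaf1a was not analysed here. Background was the 90th percentile of 27 unspiked bacterial controls, a linear intensity of 22.6, and a fold against a group mean below it is a bound with lower values set to it.

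A linear model with 1 mean per group was fitted to the 6 arrays by limma 3.58.1 (R 4.3.3), with an intensity trend in the empirical Bayes prior, two-sided tests and Benjamini-Hochberg adjustment over all genes. The pipeline was tested on simulated data. With 2 arrays a side the smallest p of an exact permutation test is 0.333, so none is reported. Promoter motifs were searched with Python 3.11.15, and figures were drawn with matplotlib 3.10.9.

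The members and lists were chosen with earlier results of these data known, so lists are described by counts and medians. Array values are given for members called in any comparison and for the members with the largest and smallest difference between CD34+Flt3hi and CD34-Flt3- cells of each sub-function, and other pathway genes by count with up to 6 of smallest adjusted p. Rrm2b and Tk2, outside this rule, were chosen after their values were seen, as were Dtymk, Klf1, Gins3 and Gins4. Ctps1 and Adss2 were read under the older symbols Ctps and Adss. Impdh2 and some genes of the marker lists, among them Ccnb1, Hbb-bt, Ly6g, Ly6c2, Lck, Klrb1c and Bglap, were not analysed here. Alternatives were blocks of the title codes, other priors, other normalizations, other probe set rules, leaving out dim genes, fitting only the 4 arrays compared and leaving out each array.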

Additional observations from a re-analysis of the deposited data

How the results depend on the processing

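No member was called between CD34+Flt3hi and CD34+Flt3- cells under any of the alternatives run. The 6 calls of CD34+Flt3- against CD34-Flt3- cells became 17 after repeated quantile normalization, 3 when all probe sets of a gene were averaged and 1 in a fit of only the 4 arrays compared, and ranged from 0 to 25 when each array was left out. Their median difference of 0.76 became 0.96 after quantile normalization and ranged from 0.47 to 1.11 without single arrays. The 18 calls of CD34+Flt3hi against CD34-Flt3- cells ranged from 1 to 32, and their median of 0.97 from 0.59 to 1.23, without single arrays. The median between the CD34+ groups, 0.23, became 0.08 after quantile normalization and 0.11 with averaged probe sets, and ranged from 0.07 to 0.32. The cause of these shifts was not tested. In a fit that left out an array, the lone array of its group was assumed to vary like the other groups.

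With the title code as a replicate block, the calls were 26 in CD34+Flt3- and 31 in CD34+Flt3hi against CD34-Flt3- cells, with medians of 1.11 and 1.24. That block fits the code C array exactly, so CD34-Flt3- cells rest on replicate 2 alone. With code A against codes B and C as a replicate block the calls were 15 for CD34+Flt3- and 27 for CD34+Flt3hi cells. Of the 27, 26 rose and 1, Chaf1b, fell. Calls over all genes were then 6.11% and 9.4%, against 2.1% and 6.11% in the main fit. The codes were not taken to pair the arrays, since the replicate differences of the groups correlated across genes at 0.07, 0.06 and 0.31.

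For the 18 genes called, 725 of the values recomputed over the 3 comparisons kept their direction and side of the threshold, 97 no longer passed, 35 newly passed, 7 that passed in neither setting changed sign, and no called value did. Of the members not called, 15 of 23 in CD34+Flt3hi and 23 of 35 in CD34+Flt3- against CD34-Flt3- cells passed under at least 1 alternative. The counts rest on 2 arrays per group, and signals near background, as for Tyms, limit its values.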
